A study of Mus musculus with 6 samples.

Results

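Complement C1q and the Fc receptors are the means by which macrophages read antibody and complement on cells, debris and immune complexes. C1q, the recognition subunit of the first complement component, is assembled from A, B and C chains that are each needed for the mature molecule, and tissue macrophages are its main source. Fc gamma receptors bind the constant part of IgG and either activate the cell through adaptors that carry an immunoreceptor tyrosine-based activation motif (ITAM) or restrain it through an inhibitory motif. The genes described are C1qa, C1qb and C1qc for the C1q chains, C3ar1 for the receptor of the anaphylatoxin C3a, Fcgr1, Fcgr3 and Fcgr4 for activating Fc gamma receptors, Fcgr2b for the inhibitory receptor, and Fcer1g and Tyrobp for the ITAM adaptors. They were chosen by name for these roles, but with earlier results of these data known. All 10 were found among the 21841 genes of the count table.

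The libraries came from LYVE-1+ tumor-associated macrophages (TAMs) of FVB/N-Tg(MMTV-PyVT)634Mul/J animals, listed as WT, whose transgene expresses the polyoma middle T antigen from the mouse mammary tumor virus promoter and gives rise to spontaneous tumors of the mammary gland. Mice received vehicle or KCL-HO-1i, a heme oxygenase inhibitor given by intraperitoneal injection at 25 µmol/kg daily, and tumors were taken after 36 hours of treatment. From each tumor, 5000 live cells positive for CD45, F4/80, CD206 and LYVE-1 were sorted for bulk RNAseq, with 3 vehicle libraries and 3 KCL-HO-1i libraries, each from its own mouse. The age of these mice is not given in the sources used here. The comparison asks how the transcripts of these macrophages differ after short exposure to the inhibitor. The vehicle mice carry other animal code prefixes than the KCL-HO-1i mice, and any difference between litters or days that the codes reflect and the drug cannot be told apart.

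After rounding, vehicle replicates 1 to 3 held 206685, 215640 and 338210 estimated counts, against 207813, 319733 and 535215 for KCL-HO-1i replicates 1 to 3. Values per library are given in this order of replicates throughout. At these depths, a gene with 0 counts in a library may lie at up to 3 counts, which corresponds to 10.2 to 16.8 CPM (counts scaled to library size with edgeR's TMM factors). Intervals and limits of this kind cover counting error only, since the reads carry no molecular identifiers.

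The sorted identity was only partly visible in the vehicle libraries. Mrc1, which encodes the sort marker CD206, had 12, 0 and 3 counts with vehicle against 31, 31 and 104 with KCL-HO-1i. Adgre1, which encodes F4/80, had 3, 3 and 1 counts against 26, 44 and 72. Ptprc, which encodes CD45, had 4, 6 and 0 counts against 0, 18 and 94, and Lyve1 had 22, 8 and 12 against 8, 38 and 36. Mrc1 and Adgre1 were thus higher in each KCL-HO-1i library than in each vehicle library, while the groups overlapped for Ptprc and Lyve1. Vehicle replicate 2 stood apart, with 6 of the 10 complement and Fc receptor genes at 0 and no count for Mrc1, and KCL-HO-1i replicate 3 carried 41.8% of its counts on mitochondrial genes, against 1.17% to 9.68% in the other libraries. KCL-HO-1i replicate 1 had counts for 7584 genes, against 10781 to 17320 in the others.

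A list of 15 general macrophage genes, which holds the sort gene Adgre1 and none of the 10, gives a scale for macrophage RNA within a library. These genes took 0.149% of the counts in vehicle replicate 1, 0.0631% in replicate 2 and 0.0506% in replicate 3. In the KCL-HO-1i libraries they took 0.387%, 0.624% and 0.384%. Every KCL-HO-1i library was above every vehicle library in this share, and the most abundant gene of the list, Lyz2, had 115, 9 and 33 counts against 330, 814 and 781. Of the 15 genes, 6 were higher in each KCL-HO-1i library (Csf1r, Lyz2, Adgre1, Ctss, Laptm5 and Lgmn) and the groups overlapped for the others, such as Cd68 (8, 9 and 8 counts against 0, 14 and 4) and Cx3cr1 (10, 23 and 14 against 0, 27 and 0), both named after their values were seen, so the share rests on part of the list. Fewer macrophages in a sort and less macrophage RNA per cell cannot be told apart in bulk libraries, and the part of this difference in the results that follow was not tested beyond the values scaled to these genes.

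The 10 genes together took 175 of 206685 counts in vehicle replicate 1, or 0.0847% (95% Wilson interval 0.0730% to 0.0982%). In vehicle replicate 2 they took 9 counts, 0.00417% (0.00220% to 0.00793%), and in vehicle replicate 3 they took 96 counts, 0.0284% (0.0233% to 0.0347%). The KCL-HO-1i libraries held 681 counts, 0.328% (0.304% to 0.353%), then 1266 counts, 0.396% (0.375% to 0.418%), and 1053 counts, 0.197% (0.185% to 0.209%). The intervals of the 3 KCL-HO-1i libraries lay above those of the 3 vehicle libraries, and the intervals of the vehicle libraries did not overlap one another either. The vehicle mean was 0.0391% ± 0.0413 and the KCL-HO-1i mean 0.307% ± 0.101 (SD, n = 3 each). Without vehicle replicate 2 and KCL-HO-1i replicate 3, a choice made after seeing the data, the means differed by 0.305 percentage points in place of 0.268.

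Counted against the macrophage genes instead of the whole library, the groups no longer separated. The 10 genes had 566, 66.2 and 561 counts per 1000 macrophage gene counts with vehicle against 847, 635 and 512 with KCL-HO-1i. KCL-HO-1i replicate 3 then lay below vehicle replicates 1 and 3, so the groups overlapped. The vehicle mean was 398 ± 287 (SD, n = 3) and the KCL-HO-1i mean 665 ± 169 (SD, n = 3), a difference of 267 that ran from 101 (without vehicle replicate 2) to 351 (without vehicle replicate 1) with a library left out, and was 555 with Lyz2 left out of the scale.

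**Figure D1:**
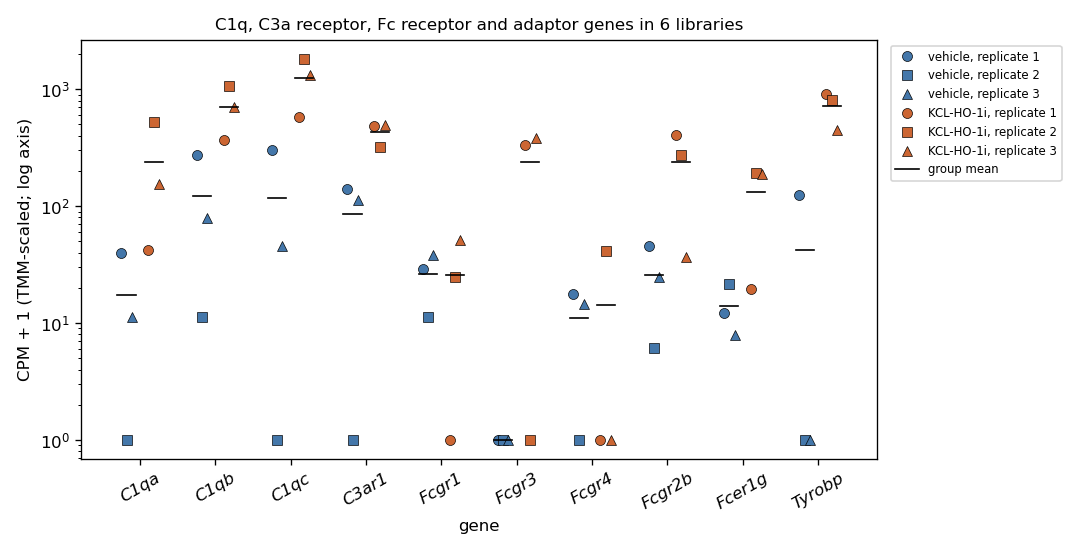
Level of each of the 10 genes in each library, as TMM-scaled CPM plus 1 on a log axis; blue points are vehicle and orange points KCL-HO-1i libraries, the marker shape gives the replicate number and the black line the mean of the group. For C1qa, C1qb, C1qc, C3ar1 and Tyrobp the 3 orange points lie above the 3 blue points, for C1qa by 41.5 against 39.1 CPM at the closest, and points at 1 are libraries with 0 counts.

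The filter on low counts kept 6 of the 10 genes, C1qa, C1qb, C1qc, C3ar1, Fcgr2b and Tyrobp. Of these, 0 passed an adjusted p-value of 0.05 with an absolute log2 fold change above 0.6 in edgeR's quasi-likelihood test, as did 0% of the 7263 genes tested. Unadjusted p-values under 0.05 were found for 586 genes, 364 higher and 222 lower in the treated mice. The median log2 fold change over all genes tested was -0.52, and that of the 6 was 3.34, but a gene that passes the filter only through the group where it is high has to differ, so the second value describes these genes and supports nothing. DESeq2 was run without this filter but with its own default filtering. It called 0 of the 9 of the 10 genes that it gave an adjusted p-value, against 1.41% of the 11612 genes with such a value. In 5 of the 10 (C1qa, C1qb, C1qc, C3ar1 and Tyrobp) each KCL-HO-1i library was above each vehicle library in CPM. The same held for 3.48% of all genes in the table and for 7.88% of the genes tested. All 5 are among the 6 that passed the filter, which favors such genes in the same way, so this count too is a description only. With vehicle replicate 2 and KCL-HO-1i replicate 3 left out, the log2 fold changes of the 6 genes ran from 1.65 (C3ar1) to 3.83 (Tyrobp), against 2.35 to 4.17 with all libraries.

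C1qb, the B chain, had 49, 2 and 23 counts with vehicle against 79, 266 and 195 with KCL-HO-1i. Scaled to CPM these were 274, 10.3 and 78.5 against 364, 1063 and 700. The groups did not overlap, although vehicle replicate 1 was closer to KCL-HO-1i replicate 1 than to the other vehicle libraries. Its log2 fold change was 2.55 ± 1.05 (SE), with an adjusted p of 0.543 in edgeR's test.

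C1qc, the C chain, had 54, 0 and 13 counts against 125, 454 and 372, or 302, 0 and 44.4 CPM against 576, 1814 and 1335. Again each KCL-HO-1i library was above each vehicle library, and vehicle replicate 2 was at 0. The log2 fold change of C1qc was 3.43 ± 1.34 (SE), with an adjusted p of 0.508 in edgeR's test.

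C1qa, the A chain, was the least abundant of the 3 in every KCL-HO-1i library, with 7, 0 and 3 counts against 9, 130 and 43. In CPM it lay at 39.1, 0 and 10.2 against 41.5, 519 and 154, so vehicle replicate 1 and KCL-HO-1i replicate 1 were separated by less than counting error. KCL-HO-1i replicate 2 alone held most of the C1qa counts, and without that library, or without KCL-HO-1i replicate 3, the gene did not pass the filter. The log2 fold change of C1qa was 3.85 ± 1.36 (SE), with an adjusted p of 0.436 in edgeR's test.

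The size of these differences depended on scaling and on single libraries. Without vehicle replicate 1 the log2 fold changes were 5.31 for C1qa, 3.95 for C1qb and 5.71 for C1qc. Leaving out vehicle replicate 2 instead gave 3.29 for C1qa, 2.01 for C1qb and 2.84 for C1qc. With the libraries scaled to the macrophage genes, which moved the median of all genes from -0.52 to -3.43, the log2 fold changes were 1.20 for C1qa, 0.07 for C1qb and 1.14 for C1qc, and in limma voom C1qb (adjusted p = 0.0456) and C1qc (adjusted p = 0.0278) were called higher together with Tyrobp, against 2.15% of the genes tested that voom called higher. Over all alternatives the adjusted p-values ran from 0.0456 to 1.00 for C1qb and from 0.0278 to 1.00 for C1qc.

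Within the C1q transcripts the balance of the chains can be read without any scaling between libraries. C1qa made up 7 of 110 C1q counts in vehicle replicate 1, 6.36% (95% Wilson interval 3.12% to 12.6%), 0 of 2 in replicate 2 and 3 of 39 in replicate 3, 7.69% (2.65% to 20.3%). In the KCL-HO-1i libraries it made up 9 of 213, 4.23% (2.24% to 7.83%), then 130 of 850, 15.29% (13.03% to 17.87%), and 43 of 610, 7.05% (5.28% to 9.36%). The groups overlapped, and the share in KCL-HO-1i replicate 2 lay above the intervals of the other KCL-HO-1i libraries. Group means differed by 4.17 percentage points (two-sided exact permutation test over 3 mice against 3, p = 0.5), and by 0.952 without KCL-HO-1i replicate 2, 1.83 without vehicle replicate 2 and 6.49 without KCL-HO-1i replicate 1.

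C1qb made up 44.5%, 100% and 59.0% of the C1q counts with vehicle against 37.1%, 31.3% and 32.0% with KCL-HO-1i. Vehicle replicate 2 rests on 2 counts, whose interval for C1qb runs from 34.2% to 100%. The interval of vehicle replicate 1, 35.6% to 53.9%, overlapped that of KCL-HO-1i replicate 1, 30.9% to 43.7%. The C1qb share was lower in every KCL-HO-1i library, by 34.4 percentage points between the means (two-sided exact permutation test over 3 mice against 3, p = 0.1, the smallest p-value this design allows). Without vehicle replicate 2 the means differed by -18.3 percentage points.

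C1qc took the converse course, with 49.1%, 0% and 33.3% of the C1q counts with vehicle against 58.7%, 53.4% and 61.0% with KCL-HO-1i. Its share was higher in every KCL-HO-1i library, by 30.2 percentage points between the means (two-sided exact permutation test over 3 mice against 3, p = 0.1, the smallest p-value this design allows) and by 16.5 without vehicle replicate 2. The interval of vehicle replicate 1, 39.9% to 58.3%, overlapped those of all KCL-HO-1i libraries, the lowest of which ran from 50.0% to 56.7%. The shares of the chains sum to 100%, so these are not independent tests.

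Per kilobase of transcript, C1qc stood at 1.43, 1.54 and 1.73 times the level of C1qb in the KCL-HO-1i libraries and at 1.00, 0 and 0.511 times in the vehicle libraries, the 0 resting on 2 C1qb counts. C1qb stood at 8.39, 1.96 and 4.34 times the level of C1qa in the KCL-HO-1i libraries and at 6.69 and 7.33 times in vehicle replicates 1 and 3. The ratio of the C to the B chain was thus alike among the KCL-HO-1i libraries and above the vehicle values, whereas the ratio of the B to the A chain spanned a range among them that held the values of vehicle replicates 1 and 3. No ratio to C1qa can be given for vehicle replicate 2, which had 0 C1qa counts.

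**Figure D2:**
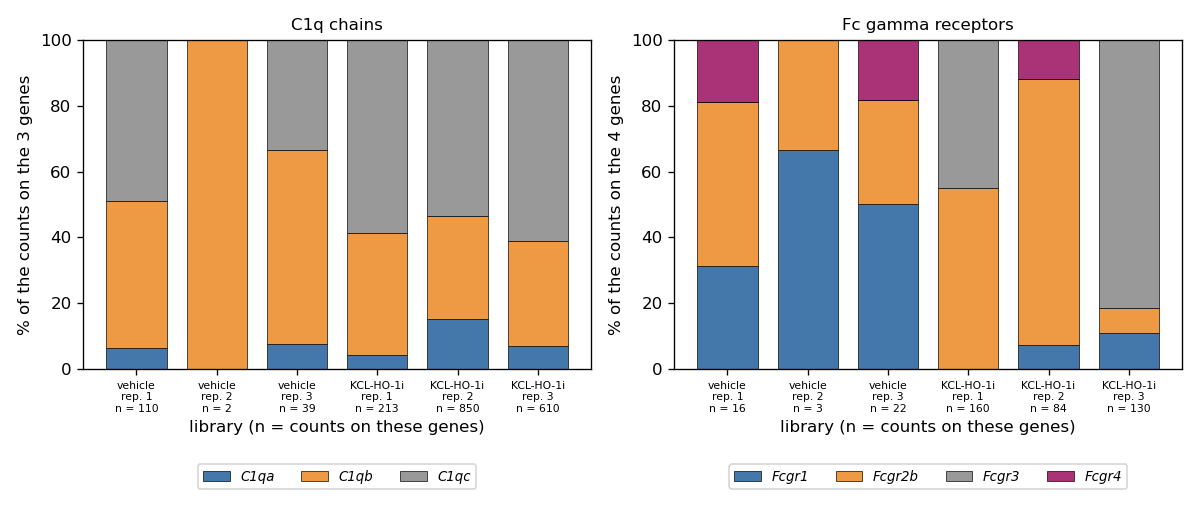
Share of each gene in the counts of its family in each library, in percent; the left panel shows the 3 C1q chains and the right panel the 4 Fc gamma receptors, and n under each bar is the number of counts the shares rest on. C1qc takes 53.4% to 61.0% of the C1q counts in the KCL-HO-1i libraries, and Fcgr3 is present in 2 of them only; the bars of vehicle replicate 2 rest on 2 and 3 counts.

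The 3 C1q genes lie side by side on the minus strand of chromosome 4 of GRCm38, within 18.7 kb (GENCODE M21): C1qb at chr4:136880129-136886187, C1qc at chr4:136889804-136893065 and C1qa at chr4:136895917-136898803. None of their 31-base words occurs in a transcript of another gene, so reads of this length could be assigned to 1 chain each. The genes most like C1q over the 6 libraries, by Pearson's r of log2 CPM with the mean of the 3 chains, were Cox7a2l (r = 0.998), Litaf (0.996), Rps13 (0.995), Crip1 (0.994) and Cd14 (0.993), and 246 of the 7257 other genes compared had r above 0.9. With 6 libraries in 2 groups that also differ in macrophage gene share, these values are a description only. Crip1 had 39, 0 and 16 counts with vehicle against 158, 829 and 487 with KCL-HO-1i. Cd14, the lipopolysaccharide co-receptor, had 46, 0 and 7 against 54, 304 and 236.

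C3ar1 encodes the receptor through which macrophages sense C3a, and lies on chromosome 6 (chr6:122847138-122856161, minus strand). It had 25, 0 and 33 counts with vehicle against 106, 80 and 137 with KCL-HO-1i, or 140, 0 and 113 CPM against 488, 320 and 492. The KCL-HO-1i libraries varied little around their mean of 433 ± 98.4 CPM (SD, n = 3), and all were above the vehicle libraries, with a mean of 84.1 ± 74.1 (SD, n = 3). The log2 fold change was 2.35 ± 1.13 (SE), with an adjusted p of 0.649 in edgeR's test. Scaled to the macrophage genes it turned to -0.21, since C3ar1 stood at 80.9, 0 and 193 per 1000 macrophage gene counts with vehicle and at 132, 40.1 and 66.6 with KCL-HO-1i.

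Among the activating Fc gamma receptors, Fcgr3, which encodes CD16, had 0 counts in all 3 vehicle libraries against 72, 0 and 106 with KCL-HO-1i. It was therefore present in KCL-HO-1i replicates 1 and 3 and listed at 0 in replicate 2, where the other macrophage genes were abundant. Its KCL-HO-1i mean was 237 CPM. No fold difference is given, because reads can be divided between Fcgr3 and Fcgr2b and a listed 0 of Fcgr3 is therefore no firm limit. Fcgr3 did not pass the filter. Without a filter edgeR called it higher together with Tyrobp, 2 of 10 against 0.359% of the 19518 genes with a fit, with an adjusted p of 0.00214, but a fitted value against a group at 0 has no fixed size, and KCL-HO-1i replicate 2 does not share the difference.

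Fcgr1, which encodes the high-affinity receptor CD64 and is widely used to mark macrophages, had 5, 2 and 11 counts against 0, 6 and 14. Fcgr4, a receptor for IgG2a and IgG2b, had 3, 0 and 4 counts against 0, 10 and 0. In CPM the groups overlapped for both, with means of 25.3 ± 13.8 and 24.7 ± 25.1 (SD, n = 3) for Fcgr1, and neither passed the filter. Per 1000 macrophage gene counts, however, Fcgr1 was lower in each KCL-HO-1i library (0, 3.01 and 6.81) than in each vehicle library (16.2, 14.7 and 64.3), on few counts. A lower value on this scale is not particular to Fcgr1. With libraries scaled to the macrophage genes, edgeR called 3639 of the 7263 genes tested lower, at a median log2 fold change of -3.43.

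Fcgr2b, the inhibitory receptor, whose cytoplasmic motif recruits the phosphatase SHIP-1, had 8, 1 and 7 counts with vehicle against 88, 68 and 10 with KCL-HO-1i. In CPM this was 44.7, 5.17 and 23.9 against 406, 272 and 35.9. KCL-HO-1i replicates 1 and 2 were high, and replicate 3 lay below vehicle replicate 1, so the groups overlapped. The log2 fold change was 3.25 ± 1.16 (SE), with an adjusted p of 0.437 in edgeR's test, 3.87 without KCL-HO-1i replicate 3 and 0.97 when scaled to the macrophage genes, and the gene did not pass the filter without KCL-HO-1i replicate 2.

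How the Fc gamma receptor counts were divided differed from one KCL-HO-1i library to the next. Fcgr2b made up 88 of 160 Fc gamma receptor counts in KCL-HO-1i replicate 1, 55.0% (95% Wilson interval 47.3% to 62.5%), 68 of 84 in replicate 2, 81.0% (71.3% to 87.9%), and 10 of 130 in replicate 3, 7.69% (4.23% to 13.6%). The intervals of these 3 libraries do not overlap one another. In the vehicle libraries it made up 8 of 16 counts, 50.0% (28.0% to 72.0%), 1 of 3, 33.3% (6.15% to 79.2%), and 7 of 22, 31.8% (16.4% to 52.7%). The vehicle mean was 38.4% ± 10.1 and the KCL-HO-1i mean 47.9% ± 37.1 (SD, n = 3 each), and they did not differ beyond the spread between mice (difference 9.50 percentage points, two-sided exact permutation test over 3 mice against 3, p = 0.7). The sign of this difference rests on KCL-HO-1i replicate 2, without which it was -7.04, and it was 29.6 without KCL-HO-1i replicate 3. The Fcgr1 share, a comparison picked after its values were seen, was lower in each KCL-HO-1i library, at 0 of 160, 6 of 84 and 14 of 130 counts against 5 of 16, 2 of 3 and 11 of 22. Its means differed by -43.3 percentage points (from -52.4 to -34.7 with a library left out), with no p-value given since it was picked for this separation, and because shares sum to 100% it also depends on the counts of the other receptors.

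Both genes are uncertain one against the other, because they share sequence. Of the 31-base words in Fcgr3 transcripts, 13.4% (233 of 1733) also occur in Fcgr2b, where they are 4.15% of 5609 words. The longest run common to the coding sequences is 129 bases, positions 278 to 406 of the 1020 coding bases of Fcgr2b and 263 to 391 of the 801 of Fcgr3. It is shown because reads that fall within it fit either gene and are divided between them by estimation. In the genome it spans an exon junction in each gene, between chr1:170966674-170968081 in Fcgr2b and chr1:171054167-171057792 in Fcgr3 on the minus strand of GRCm38, and it is read from the GENCODE M21 transcripts:
Fcgr2b and Fcgr3: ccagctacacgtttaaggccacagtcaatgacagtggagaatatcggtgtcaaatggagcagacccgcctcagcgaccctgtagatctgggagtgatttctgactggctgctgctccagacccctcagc

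Taken as a sum, which no such division can change, Fcgr2b and Fcgr3 had 8, 1 and 7 counts with vehicle against 160, 68 and 116 with KCL-HO-1i. In CPM the sum was 44.7, 5.17 and 23.9 against 737, 272 and 416. The groups did not overlap, with the KCL-HO-1i libraries higher, as for 3.48% of all genes in the table. Per 1000 macrophage gene counts they did overlap. On that scale KCL-HO-1i replicate 2 stood at 34.1, below vehicle replicate 3 at 40.9, both with Fcgr3 at 0. Fcgr2b, Fcgr4, Fcgr3 and Fcer1g lie within 276 kb of chromosome 1, while Fcgr1 is on chromosome 3. Fcgr2b also overlaps Gm38204, an antisense gene that is not a row of the table. The methods of the study list an antibody to CD16/32, the proteins of Fcgr3 and Fcgr2b, for blocking Fc receptors before staining; any part of it in these transcripts was not tested.

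Tyrobp encodes DAP12, the adaptor that pairs with Trem2 and related receptors, and lies on chromosome 7 (chr7:30413760-30417585, plus strand). It had 22, 0 and 0 counts with vehicle against 198, 204 and 124 with KCL-HO-1i, or 123, 0 and 0 CPM against 912, 815 and 445. All KCL-HO-1i libraries were high and 2 of 3 vehicle libraries were at 0, so the groups were well apart. The log2 fold change was 4.17 ± 1.50 (SE), with an adjusted p of 0.439 in edgeR's test, and 2.41 (adjusted p = 0.126) when scaled to the macrophage genes. Tyrobp passed the thresholds in limma voom (6.41, adjusted p = 0.0140), in edgeR without a filter (adjusted p = 0.0381) and in edgeR without vehicle replicate 1 (10.47, adjusted p = 0.0306), where the vehicle group is at 0 and the fitted size is not fixed, and its adjusted p-values ran from 0.0140 to 0.988 over all alternatives.

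Fcer1g encodes the common gamma chain on which Fcgr1, Fcgr3 and Fcgr4 depend for surface expression and signaling. It had 2, 4 and 2 counts against 4, 48 and 52, or 11.2, 20.7 and 6.83 CPM against 18.4, 192 and 187. KCL-HO-1i replicates 2 and 3 were high, while replicate 1 lay below vehicle replicate 2, and the gene did not pass the filter. KCL-HO-1i replicate 1 thus had 72 Fcgr3 counts with 4 of Fcer1g, and replicate 2 had 48 Fcer1g counts with 0 of Fcgr3. Per kilobase, Tyrobp stood at 56.6, 4.86 and 2.73 times the level of Fcer1g in the KCL-HO-1i libraries.

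Ordered by level per kilobase in the KCL-HO-1i libraries, Tyrobp came first at 1213 ± 413 CPM per kb (SD, n = 3), followed by C1qc at 1032 ± 519 and C1qb at 652 ± 321. Tyrobp exceeded C1qc in 1 of 3 libraries, so their order is not set, whereas C1qc exceeded C1qb and C1qb exceeded C1qa in 3 of 3. C1qa (229 ± 240), Fcer1g (194 ± 144) and Fcgr3 (176 ± 154) came next and did not differ beyond their spread. C3ar1 lay at 101 ± 22.9 and Fcgr2b at 67.1 ± 52.8, and Fcgr4 (10.6 ± 18.4) and Fcgr1 (9.56 ± 9.71) were lowest. With vehicle, C1qb (111 ± 126), C1qc (95.9 ± 136) and Tyrobp (68.7, with 2 of 3 libraries at 0) led, each with an SD above its mean. The other genes lay between 6.94 (Fcgr2b) and 19.5 (C3ar1) and did not differ beyond their spread, with Fcgr3 at 0.

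Promoter sequences from RefSeq (GRCm38.p6) were matched for 8 of the 10 genes, without C1qa and Tyrobp. The 250 bases before each start were searched on both strands for GAGGAA, letters at the core of many sites of the myeloid factor PU.1, and for GGAANNGAAA, its composite with interferon regulatory factors. GAGGAA occurred before C1qb, C1qc, Fcgr1, Fcgr3 and Fcgr4, and in 23.3% of all 32851 promoter windows. The composite occurred before Fcgr2b, and in 2.3% of all windows. C3ar1 and Fcer1g held neither of these strings in the window. A match is a string of letters and no measured binding site. Stretches of 60 bases are shown for 2 C1q chains and 2 activating receptors, with the match in capitals (TTCCTC is the same motif on the other strand):
C1qb, chr4:136886201-136886260, minus strand: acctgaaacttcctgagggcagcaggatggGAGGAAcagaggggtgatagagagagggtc
C1qc, chr4:136893075-136893134, minus strand: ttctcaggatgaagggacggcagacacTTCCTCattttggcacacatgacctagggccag
Fcgr1, chr3:96293992-96294051, minus strand: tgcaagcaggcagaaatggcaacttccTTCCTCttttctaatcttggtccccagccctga
Fcgr4, chr1:171018866-171018925, plus strand: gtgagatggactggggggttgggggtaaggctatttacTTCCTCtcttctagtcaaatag

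In the wider complement system, of 22 genes for complement proteases and components, 5 were tested and 0 were called in either direction. Fcna, a ficolin that starts the lectin pathway, had 11, 5 and 4 counts with vehicle against 75, 91 and 83 with KCL-HO-1i. All KCL-HO-1i libraries were high and close together, at 336 ± 33.9 CPM (SD, n = 3) against 33.7 ± 24.9 (SD, n = 3), and its log2 fold change was 3.32 ± 0.88 (SE), with an adjusted p of 0.296 in edgeR's test. Cfp, which encodes properdin, a stabilizer of the alternative pathway convertase, had 36, 3 and 2 counts against 40, 96 and 102, and the groups overlapped after scaling. Masp1, a protease of the lectin pathway, had 20, 13 and 30 counts against 0, 18 and 37.

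Of 11 complement regulators, 2 were tested and 0 were called. Cd46, a membrane cofactor for cleavage of C3b, had 2, 13 and 8 counts against 21, 22 and 1, and the groups overlapped.

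Of 11 other complement receptor genes 6 were tested and 0 called. C5ar1, the receptor of the companion anaphylatoxin C5a, had 26, 18 and 14 counts against 10, 53 and 57. Cd93 had 3, 32 and 46 counts against 5, 6 and 30, and Cr2, the receptor of C3 fragments best known from B cells, had 32, 0 and 22 against 18, 0 and 23. The groups overlapped for these 3 genes. Itgb2, the beta chain of complement receptor 3, and C1qbp were listed at 0 in all 6 libraries, although Itgb2 is a leukocyte gene, the cells were sorted for CD45, and C1qbp is widely expressed, so a listed 0 may not mean that a transcript was absent.

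Of 12 other Fc receptor genes 2 were tested and 0 called. Fcgrt, which encodes the neonatal Fc receptor that recycles IgG inside cells, stood at 140, 25.8 and 20.5 CPM with vehicle against 207, 483 and 208 with KCL-HO-1i. The groups did not overlap, and the log2 fold change was 2.28 ± 0.97 (SE), with an adjusted p of 0.572 in edgeR's test, but -0.09 when scaled to the macrophage genes. Pigr, which carries IgA and IgM across epithelia, had 2, 21 and 14 counts against 20, 1 and 14.

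Genes listed as receptors that signal through Tyrobp, together with the adaptor gene Hcst, were sparse. Of these 14 genes 3 were tested and 0 called, and which adaptor each receptor uses was not tested. Klrk1, which encodes NKG2D, had 15, 2 and 12 counts against 0, 17 and 51, Cd300lb had 11, 0 and 5 against 9, 15 and 41, and Cd300ld had 4, 10 and 5 against 23, 16 and 7, with overlapping groups for each. Trem2, a lipid-sensing partner of DAP12 named after its values were seen, had 2, 0 and 0 counts against 37, 21 and 2 and was not tested.

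Downstream of the receptors, 9 of 24 ITAM signaling genes were tested and 0 called. The exchange factor Sos1 had 59, 14 and 54 counts against 86, 14 and 68, Pik3r1, the regulatory subunit of phosphoinositide 3-kinase, had 20, 39 and 30 against 26, 54 and 42, and the kinase Lyn had 23, 1 and 13 against 4, 20 and 118. Groups overlapped for all 3. Of 7 genes for phosphatases and adaptors of the inhibitory arm, 1 was tested and 0 called, namely Dok2, with 4, 2 and 32 counts against 1, 22 and 26 and a log2 fold change of 0.37 ± 1.37 (SE). These 7 genes summed to 23, 6 and 43 counts (0.0111%, 0.00278% and 0.0127%) with vehicle against 49, 96 and 141 (0.0236%, 0.0300% and 0.0263%), higher in each KCL-HO-1i library, although 0 of the 7 genes were so on their own. Their most abundant gene, Inpp5d, which encodes SHIP-1 and was named after its values were seen, had 6, 0 and 5 against 3, 29 and 69. The 24 ITAM signaling genes, which many cell types share, took 0.0832% to 0.108% of the counts in each library, while the 10 genes ranged from 0.00417% to 0.396%.

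Markers of the sorted population and of other cells were counted in the same libraries. Of 12 perivascular macrophage markers, the sort genes Mrc1 and Lyve1 among them, all had at least 1 count, and they summed to 199, 47 and 130 counts (0.0963%, 0.0218% and 0.0384%) with vehicle and to 850, 1828 and 1834 (0.409%, 0.572% and 0.343%) with KCL-HO-1i. Their most abundant gene, Pf4, had 12, 3 and 1 counts against 181, 710 and 636. Each KCL-HO-1i library was above each vehicle library in the sum of these markers, as it was for the 10 genes.

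Of 12 epithelial and tumor markers, all had a count, summing to 76, 54 and 95 counts against 349, 159 and 221, with the milk protein gene Csn3 most abundant (39, 1 and 18 counts against 244, 79 and 176). The 7 T cell markers in the table summed to 17, 26 and 33 counts against 20, 31 and 14, led by Cd8a, and the 5 B cell markers to 46, 39 and 62 against 25, 58 and 52, led by Pax5. NK cell markers (6 genes, Klre1 at 0 in every library) summed to 32, 7 and 39 counts against 4, 20 and 4, led by Prf1. Neutrophil markers (7 genes) summed to 37, 15 and 35 against 36, 34 and 57, led by Cxcr2, and mast cell markers (6 genes) to 12, 35 and 27 against 0, 4 and 18, led by Tpsab1. The epithelial and tumor list took a larger share of each KCL-HO-1i library (0.0413% to 0.168%) than of each vehicle library (0.0250% to 0.0368%), but with Csn3 left out, a choice made after seeing the data, it summed to 37, 53 and 77 counts against 105, 80 and 45, and KCL-HO-1i replicate 3 then had the smallest share of all. Cdh1, an epithelial cadherin named after its values were seen, had 5, 12 and 13 counts against 0, 3 and 0.

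Dendritic cell markers (6 genes) summed to 44, 51 and 131 counts against 26, 34 and 52, led by Zbtb46. Endothelial markers (7 genes, Egfl7 at 0 in every library) summed to 56, 42 and 69 against 24, 41 and 23, led by Vwf, and fibroblast markers (6 genes) to 36, 58 and 70 against 15, 8 and 44, led by Pdgfra. Erythroid genes (5 genes, Hba-a2 at 0 in every library) summed to 7, 0 and 1 against 2, 168 and 20, led by Hba-a1, and so marked KCL-HO-1i replicate 2. As a share of the library, 4 of these lists were lower in each KCL-HO-1i library than in each vehicle library. Dendritic cell markers took 0.0213% to 0.0387% with vehicle against 0.00972% to 0.0125%, endothelial markers 0.0195% to 0.0271% against 0.00430% to 0.0128%, fibroblast markers 0.0174% to 0.0269% against 0.00250% to 0.00822%, and mast cell markers 0.00581% to 0.0162% against 0% to 0.00336%. With the most abundant gene of each list left out, a choice made after seeing the data, the groups overlapped for dendritic cell and fibroblast markers and stayed apart for endothelial and mast cell markers. The part of these differences in the results was not tested.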

How the data were processed

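Bulk RNAseq of 6 libraries was analysed. The authors deposited estimated counts per gene, which need not be whole: according to the submitters' processing notes and the methods, reads were checked with FastQC 0.11.9, aligned with STAR 2.7.9a to mm10, quantified with Salmon 1.9.0 and summed to genes with tximport. The methods call them TPM counts, but totals differ between libraries, so they were treated as estimated counts, rounded to whole numbers. From all 21841 genes, filterByExpr kept those with enough counts (minimum 10, total 15), which were scaled with TMM and tested with edgeR 4.0.16 in R 4.3.3 without covariates; a gene was called at a Benjamini-Hochberg adjusted p under 0.05 and an absolute log2 fold change above 0.6, and a standard error is the log2 fold change over the square root of F. DESeq2 1.42.0 and limma 3.58.1 were alternatives. The scripts were tested on simulated data. Log2 CPM for correlations used a prior count of 2. Positions and transcript lengths (longest coding transcript) are from GENCODE M21. The members and gene lists were chosen with earlier results of these data known. Named are the 10 genes, the sort genes, up to 3 of the most abundant tested genes of each pathway list, the 5 genes most like C1q and the top gene of each marker list; others were named after their values were seen. Trac and Ighm are not rows of the table. Whole-tumor RNAseq was not used here.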

Additional observations from a re-analysis of the deposited data

How the results depend on the processing

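The count of genes called was 0 and stayed 0 with RLE factors, library totals, no fold change threshold, mitochondrial genes left out and thinning to the smallest library, and with vehicle replicate 2 and KCL-HO-1i replicate 3 both left out, an alternative added after seeing the data. It was 164 in DESeq2 with only its own default filtering, 209 in limma voom and 82 in edgeR without a filter. With at least 10 counts in every library it was 67 (948 genes tested, with 0 of the 10 genes among them). Scaling libraries to the macrophage genes gave 3651, of which 3639 were lower. Each library left out in turn gave 0 to 33 genes, the latter without vehicle replicate 1. Of the 10 genes, limma voom called 3, edgeR without a filter 2, and fits with a library left out 0 to 1. Over 85 planned fits of the 6 genes tested, the direction held in all but 1, C3ar1 at -0.21 with macrophage scaling. Members per 1000 macrophage gene counts differed by 555 between the groups, in place of 267, with Lyz2 left out of the scale. The Fcgr2b share turned to -7.04 percentage points with a library left out, within a range of -7.04 to 29.6. The causes were not tested. Replicate numbers belong to different mice, and the deviations of same-numbered libraries correlated at -0.003, 0.055 and -0.033, so they are not paired; with the replicate block 0 genes and 0 of the 10 genes were called. The share of the library was not computed per kilobase, because some genes have no known length. The values of Fcgr1 and Fcgr4 and the chain shares of vehicle replicate 2 rest on few counts.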
